A study of Homo sapiens with 47 samples.

Results

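The 9 genes described here encode the MYC proteins (MYC, MYCN and MYCL), their obligate partner MAX, and the proteins that compete with MYC for MAX (MXD1, MXD3, MXD4, MXI1 and MNT). They were picked by name and found by Ensembl gene identifier among the 58051 genes listed for each library. That rule uses no measured value, although earlier results of these data were known when the family was chosen. All 9 were measured in all 47 libraries and all 9 passed the filter on low counts.

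MYC proteins bind DNA only as heterodimers with MAX, mostly at the E-box, and promote transcription of genes for ribosome production, metabolism and cell division. MXD proteins, MXI1 and MNT also bind E-boxes together with MAX, but recruit the SIN3 and histone deacetylase corepressors and repress. In embryos, MYCN is the MYC gene of the caudal epiblast and the neural tube, MYC is prominent in pluripotent cells and in the neural crest, and MXD genes are typically raised as progenitors leave the cell cycle.

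The study followed H9 (WA09) cells, a human embryonic stem cell (hESC) line, through differentiation to neuromesodermal progenitor (NMP)-like cells and then to cultures of pre-neural progenitors (PNPs) and neural crest (NC). Bulk poly(A) RNA-seq gave 35 libraries of whole cultures over 12 time points, from 3 independent differentiations (r1 to r3), with P9 represented by r1 and r2 only. A further 12 libraries came from epithelial (EPI, PNP) and mesenchymal (MES, NC) fractions of P5 and P8, 3 of each. At t0 the hESCs had been grown on Matrigel in mTeSR1. The 36 h cells had been held for 36 h in N2B27 without vitamin A, with CHIR-99021 (a WNT pathway agonist), rhFGF2, AGN193109 (a retinoic acid receptor inverse agonist) and Y-27632 (a ROCK inhibitor). P1 to P10 are successive passages of the replated 36 h cells in medium with the same agents, although the study describes a higher Y-27632 dose for early than for later passages, so that dose and passage cannot be told apart. Every group after t0 carried all 4 agents and no group tests an agent on its own. The fractions were separated by how readily the cells detached in TrypLE, which enriches rather than purifies, and all libraries derive from 1 cell line. In bulk RNA, fewer cells of a type and less RNA per cell cannot be told apart.

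Library totals ran from 13029491 to 64082859 assigned reads with a median of 47292229, and every gene of the family had at least 39.8 assigned reads in each library. The marker genes followed the labels of the time course in part. Between t0 and 36 h, 4 of 5 NMP markers rose, while 0 of 5 hESC markers had an adjusted p under 0.05 in edgeR, although all 5 values were negative. Between t0 and P9 and P10, 5 of 5 hESC markers fell. The P5 fractions followed their labels too, with 5 of 9 NC markers higher and 2 of 6 epithelial markers lower in MES than in EPI at an adjusted p under 0.05, whereas in the P8 fractions no marker passed that limit. Some libraries stood apart. P1.r1 still carried a summed TPM of 1503 for the 5 hESC markers against 128 and 111 in P1.r2 and P1.r3. At 36 h, 36h.r3 had the lowest hESC total, 928 against 2569 and 1845, and the highest paraxial mesoderm total (5 markers), 633 against 12.1 and 132. Its NC total was also the highest, 206 against 38.6 and 67.5. P3.r1 had 268 for paraxial mesoderm against 40.9 and 43.7. P10.r1 carried 418 for the 6 epithelial markers against 6.90 and 4.27 in P10.r2 and P10.r3. The smallest totals were those of P6.r3 and P4.r3.

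Levels are given in 2 ways. TPM, a share of all transcripts in a library, is scaled to transcript length, so it serves for comparing one gene with another. Normalized counts are read counts divided by a library scaling factor, so they serve for following one gene between libraries. A gene passed the study's thresholds when it had a false discovery rate under 1%, a fold change of 2 or more and an average of 100 or more normalized counts. An adjusted p under 0.05 alone was kept as a second, looser rule, and "rose" and "fell" are used for either.

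Promoter windows of 300 bases ran from 250 bases before to 50 after the annotated start. They covered 8 of the 9 genes, all but MYC, in 11 windows. Each was searched on both strands for the E-box CACGTG, to which MAX dimers bind, for the TCF/LEF core CTTTGAT of WNT signalling, and for the E2F site TTTGGCGC of cell cycle genes. The 3 windows that held a match are shown, 5′ to 3′ on the strand of the gene, with the match in capitals. They are RefSeq sequences of GRCh38.p14: MYCN at chr2:15940300-15940599 on the plus strand with the E2F letters starting at position -176, MXD4 at chr4:2262060-2262359 on the minus strand with the E-box at -238, and MNT at chr17:2401011-2401310 on the minus strand with the E-box at -193.
MYCN: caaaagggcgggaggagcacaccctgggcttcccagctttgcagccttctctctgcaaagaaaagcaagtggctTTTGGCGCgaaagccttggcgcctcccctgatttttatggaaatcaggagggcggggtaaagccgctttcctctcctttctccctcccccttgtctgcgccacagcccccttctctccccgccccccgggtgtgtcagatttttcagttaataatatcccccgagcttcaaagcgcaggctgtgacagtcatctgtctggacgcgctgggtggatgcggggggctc
MXD4: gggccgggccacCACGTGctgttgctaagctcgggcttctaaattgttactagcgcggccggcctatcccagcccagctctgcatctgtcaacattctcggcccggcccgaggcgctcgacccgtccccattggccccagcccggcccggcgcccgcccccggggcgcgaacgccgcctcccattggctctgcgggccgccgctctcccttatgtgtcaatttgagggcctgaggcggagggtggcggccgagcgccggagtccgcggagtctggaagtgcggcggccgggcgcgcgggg
MNT: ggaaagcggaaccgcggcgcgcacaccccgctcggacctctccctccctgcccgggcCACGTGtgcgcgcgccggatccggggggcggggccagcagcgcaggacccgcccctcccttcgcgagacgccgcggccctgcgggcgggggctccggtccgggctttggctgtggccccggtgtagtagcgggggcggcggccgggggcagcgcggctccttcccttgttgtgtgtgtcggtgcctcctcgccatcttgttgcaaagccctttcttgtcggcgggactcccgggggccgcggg

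Of 35116 promoter windows of that length, 7.26% held the E-box, 0.652% the E2F letters and 2.62% the TCF/LEF letters, the last of which were in 0 of the 11 windows. No MYC promoter was searched, so the absence of TCF/LEF letters does not extend to MYC. A match describes the letters and is not evidence of binding. Both genes with an E-box, MXD4 and MNT, belong to the competitors, and their levels over the 12 time points are given with those of the other competitors.

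Positions of the whole genes are given in GRCh38. MYC (ENSG00000136997) spans chr8:127735434-127741434 on the plus strand. MYCN (ENSG00000134323) spans chr2:15940564-15947007 on the plus strand. MYCL (ENSG00000116990) spans chr1:39895426-39902256 on the minus strand. MAX (ENSG00000125952) spans chr14:65006174-65102695 on the minus strand. The competitors are MXD1 (ENSG00000059728, chr2:69897688-69942945, plus), MXD3 (ENSG00000213347, chr5:177301461-177312757, minus), MXD4 (ENSG00000123933, chr4:2247432-2262294, minus), MXI1 (ENSG00000119950, chr10:110207605-110287365, plus) and MNT (ENSG00000070444, chr17:2384060-2401118, minus). The spans of some neighbouring genes overlap this family: SNRNP27 overlaps MXD1 and RAB24 overlaps MXD3 on the same strand, and on the opposite strand PRELID1, at a mean of 5618 normalized counts over all libraries, overlaps MXD3 and FNTB overlaps MAX. How reads of such pairs were divided depends on the authors' counting, so counts of MXD1, MXD3 and MAX are less certain than those of MYC.

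Across the 12 time points as a whole, 8 of the 9 genes differed by the study's thresholds in edgeR's quasi-likelihood test, against 27.0% of the 21750 genes tested, and 9 of 9 had an adjusted p under 0.05, against 68.7%. MNT was the exception, because its group means spanned only 0.82 on the log2 scale. The widest span belonged to MYC, at 4.21 on the log2 scale between its highest and lowest group mean, followed by MYCL at 3.48 and MXD1 at 3.11. Without r1 the count was still 8, against 30.1% of the genes tested in that fit, but it was 3 without r2, against 11.6%, and 4 without r3, against 14.9%.

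**Figure D1:**
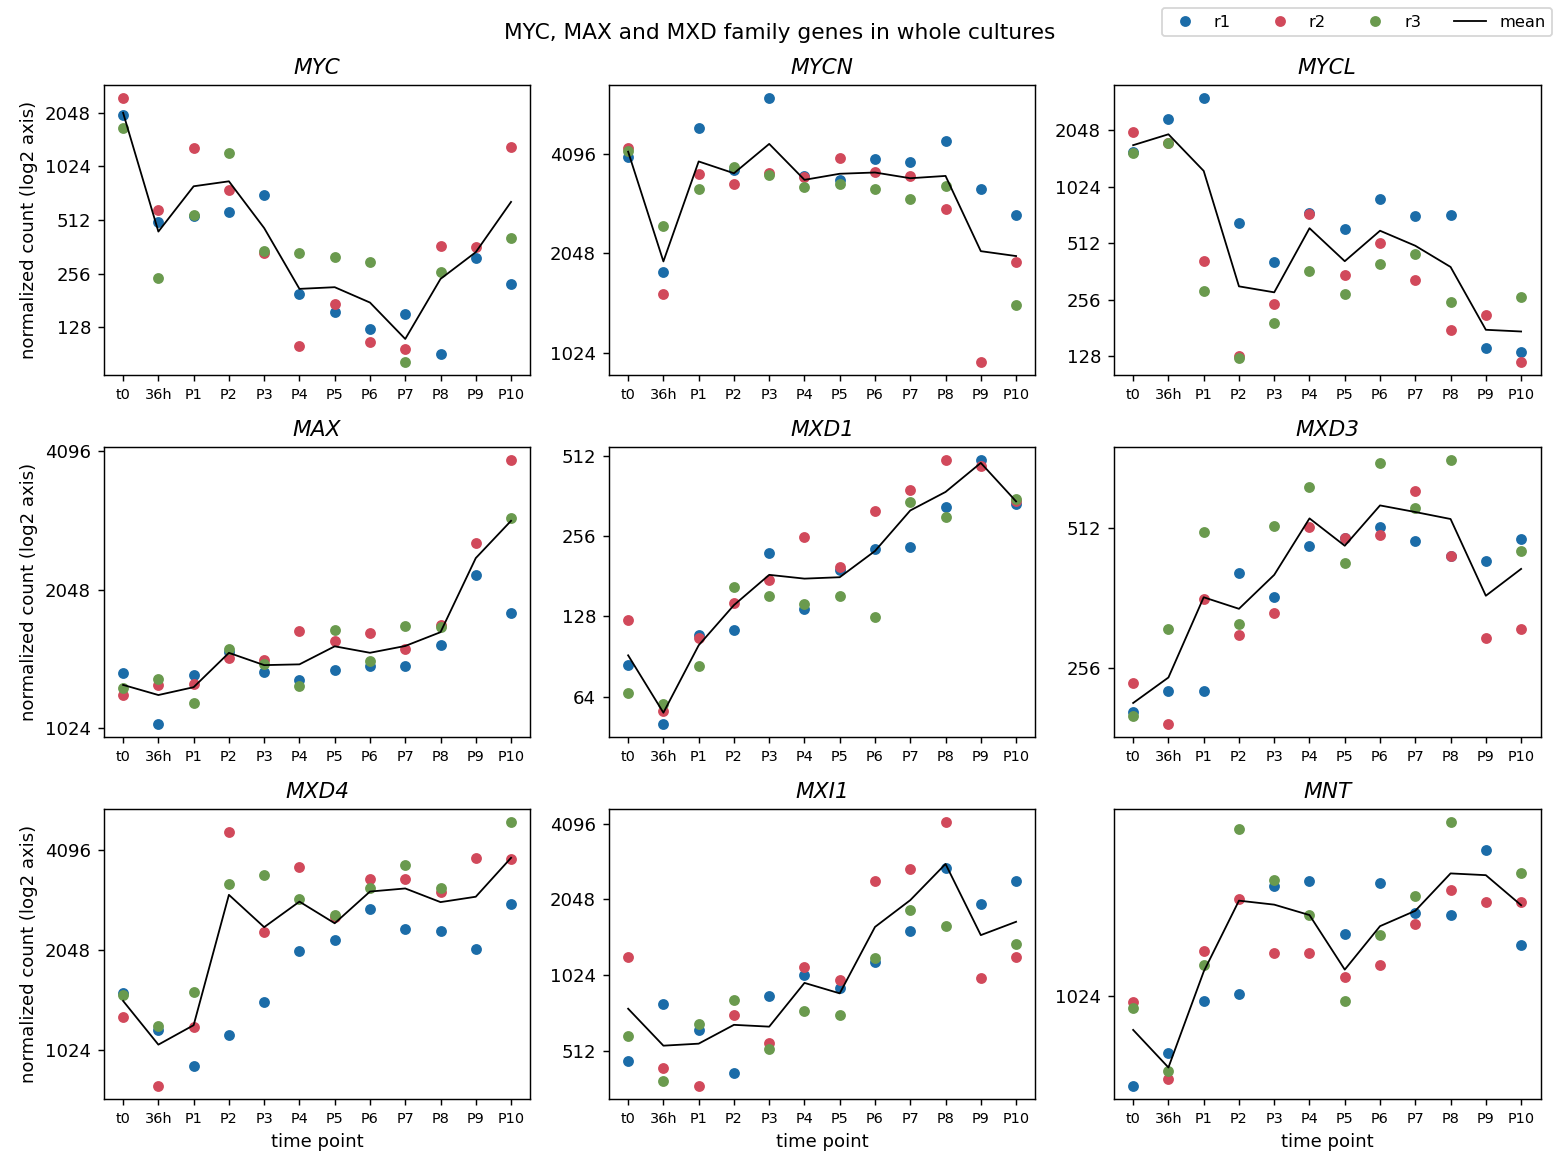
Normalized counts (log2 axis) of the 9 genes in each of the 35 whole-culture libraries by time point. Points are libraries coloured by differentiation (r1 to r3) and the line joins group means. MYC drops from 1674 to 2477 at t0 to 81.3 to 151 at P7, while MXD1 climbs from 50.4 to 60.0 at 36 h to 472 to 496 at P9.

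MYC was highest in undifferentiated cells. Its TPM was 35.7, 40.6 and 29.4 at t0, 9.39, 9.63 and 4.12 at 36 h, and 9.45, 21.9 and 9.36 at P1. The 3 t0 libraries lay above every later library of the series, P10.r2 included at 23.3. From P4 the level settled lower still, at 2.96, 1.76 and 1.5 at P7, and then spread out again, to 1.87, 6.64 and 4.97 at P8 and 4.22, 23.3 and 7.07 at P10. In the order of the time points by mean TPM, only the step from t0 to the next highest, P2, was free of overlap, and each of the other neighbours overlapped.

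In edgeR's quasi-likelihood test, MYC changed by a log2 fold change of -2.20 (SE 0.60, adjusted p = 0.0173) from t0 to 36 h, a fall in 3 of 3 differentiations. It changed by -1.83 (SE 0.60, adjusted p = 0.0386) from P1 to P5, again falling in 3 of 3. Neither step reached a false discovery rate of 1%, and both lost significance when a differentiation was left out: the first had adjusted p values of 0.10 without r2 and 0.18 without r3, and the second of 0.087, 0.29 and 0.075 without r1, r2 and r3. The library 36h.r3, lowest of its group for MYC, weighed on the first: without it alone the value was -1.86 with an adjusted p of 0.11. Between P8 and the pooled P9 and P10, the log2 difference was 1.02 (SE 0.55, adjusted p = 0.243), with each differentiation higher but P8 and late libraries overlapping.

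Cell type markers moved in the same steps, by the rule of an adjusted p under 0.05 in edgeR. From t0 to 36 h, besides the NMP markers, 3 of 5 paraxial mesoderm markers rose, as did 2 of 6 epithelial and 1 of 9 NC markers, while 1 epithelial and 1 NC marker fell. From 36 h to P1, 1 of 5 hESC, 2 of 6 epithelial and 1 of 9 NC markers fell and none of the 36 markers rose. From P1 to P5, 6 of 9 NC markers rose, their summed TPM going from a range of 69.4 to 152 to one of 191 to 527. In that step 3 of 5 NMP markers fell, from sums of 248.8 to 1524 to sums of 18.9 to 44.7, and 2 of 5 hESC markers fell, from 111 to 1503 to 108 to 140. Of the 5 paraxial mesoderm markers 3 fell and 1 rose, of the 6 epithelial markers 1 rose and 1 fell, and of the 6 neuron markers 1 fell. Over all genes, 12.3%, 8.48% and 17.3% were called by that rule in these steps in turn, in either direction. The part of these cell types in the values of MYC and of the other family genes in these steps was not tested.

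MYCN, the MYC gene of caudal progenitors, had a different course: a dip, a return and a late decline. Its TPM was 60.9, 61.1 and 61.5 at t0, 28.9, 22.0 and 36.9 at 36 h, and 74.0, 52.7 and 48.1 at P1. The 36 h libraries lay below all 3 libraries at t0 and all 3 at P1. Through P2 to P8 the level stayed between 43.6 and 93.0, and 1 library, P3.r1, with its high paraxial mesoderm total, set that maximum. At the end it was 52.1 and 15.0 at P9 and 44.5, 30 and 21.8 at P10. Of these 5 libraries the pair from r1 still lay within the range of P8, and the other 3 lay below it.

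MYCN was the 1 family gene to pass the study's thresholds between t0 and 36 h, where 2.71% of all genes did. In edgeR it fell with a log2 fold change of -1.09 (SE 0.26, adjusted p = 0.00613). It was not called without the differentiation block (adjusted p = 0.017), without r2 (0.13) or without r3 (0.069). Leaving out P4.r3 and P6.r3, the smallest libraries, also ended the call by the study's thresholds. From 36 h to P1 it rose by 0.99 (SE 0.26, adjusted p = 0.0185, edgeR), with an adjusted p of 0.22 without r2 and 0.083 without r3. Without 36h.r3 alone that rise was 1.3 (adjusted p = 0.0066) and passed the study's thresholds. From P8 to P9 and P10 it changed by -0.84 (SE 0.23, adjusted p = 0.0215, edgeR), lower in 3 of 3 differentiations. Here 1 library carried much of the difference: without P9.r2 the value was -0.55 with an adjusted p of 0.073. It was 0.079 without the block, 0.23 without r2 and 0.21 without r3, whereas without r1 the change was -1.26 (adjusted p = 0.00072) and passed the study's thresholds. Cell type markers also moved from P8 to P9 and P10, and their values are given after those of MAX.

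MYCL, which is best known from lung tumours, was high at t0 and 36 h and low afterwards. Its TPM was 21.9, 26.1 and 21.2 at t0 and 33.5, 22.2 and 23.0 at 36 h, ranges that overlap. At P1 the differentiations parted, with 40.9 in r1 against 5.30 in r2 and 3.89 in r3. P1.r1, with its high hESC marker total, also had a summed TPM of 1524 for the 5 NMP markers against 411 and 248.8 in the other P1 libraries. From P2 on, MYCL lay between 1.68 and 14.5 in whole cultures, and r1 was the highest of the 3 at each time point from P2 to P8. At those time points r1 also had the highest summed TPM of the 6 epithelial markers, such as 710 against 251 and 162 at P8. From P3 to P8 it had the lowest sum of the 9 NC markers, such as 153 against 495 and 888 at P8. The part of these cell types in the MYCL values of r1 was not tested.

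With P1.r1 in the fit, MYCL differed between 36 h and P1 by -1.06 (SE 0.55, adjusted p = 0.254, edgeR). Without r1 the same difference was -2.32 (adjusted p = 0.0014), and without P1.r1 and P10.r1 it was -2.18 (adjusted p = 0.0043), past the study's thresholds in both cases. The part of cells still in the hESC or NMP state in the P1.r1 value was not tested.

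MAX, which MYC proteins and competitors alike need to bind DNA, kept to a narrow range until P8 and was higher afterwards. Its normalized count was 1354, 1212 and 1251 at t0 and 1551, 1719 and 1701 at P8, with every library in between from 1045 to 1712. It reached 2209 and 2594 at P9 and 1825, 3921 and 2936 at P10. All 5 late libraries lay above all 30 earlier whole-culture libraries. MAX rose by 0.67 (SE 0.14, adjusted p = 0.00609, edgeR) from P8 to P9 and P10, under the 2-fold minimum, and the adjusted p was 0.22 without r2 and 0.14 without r3.

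Markers of several cell types moved in the step in which MAX rose and MYCN fell, the summed NC marker TPM among them. Its 9 genes summed to 1194 and 1203 at P9 and to 252, 1010 and 1087 at P10, against 153, 495 and 888 at P8. Of these 9, 3 rose and 0 fell at an adjusted p under 0.05 in edgeR. The late library with the lowest NC total, P10.r1, also had the lowest MAX count of the 5. The 6 epithelial markers summed to 15.3 and 15.0 at P9 and to 418, 6.90 and 4.27 at P10, against 710, 251 and 162 at P8, and 3 of them fell at an adjusted p under 0.05 in edgeR. The 6 neuron markers summed to 463, 449 and 424 in P9.r2, P10.r2 and P10.r3, the 3 libraries with the highest MAX counts, and to 158 and 281 in P9.r1 and P10.r1, and 0 of them passed that limit. Over all genes, 10.4% passed it in either direction. The part of these cell types in the MAX and MYCN values of this step was not tested.

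Among the competitors, MXD1, which is known for its induction in differentiating cells, had the largest rise. Its normalized count was 84.1, 124 and 65.9 at t0 and 50.4, 56.6 and 60.0 at 36 h. It was 191, 196 and 153 at P5, 330, 495 and 304 at P8, and 496 and 472 at P9. The P1, P5 and P8 groups each lay wholly above the group before them in this list of comparisons. In edgeR's test MXD1 rose by 0.84 (SE 0.26, adjusted p = 0.0463) from 36 h to P1 and by 0.88 (SE 0.26, adjusted p = 0.0207) from P1 to P5, and the first of these had an adjusted p of 0.084 without the block. Leaving out any 1 differentiation raised both above 0.05, to 0.12 or more and 0.070 or more. Its TPM stayed low throughout, from 0.59 to 6.45 in whole cultures.

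MXD3, a member often found in dividing progenitors, had 206, 238 and 202 normalized counts at t0, and 228, 361 and 501 at P1, where P1.r1 was the one library within the 36 h range of 194 to 311. From P4 to P8 it lay between 431 and 716, above every t0 and 36 h library. No single step passed either rule, and the step from 36 h to P1 came nearest, at 0.59 (SE 0.23, adjusted p = 0.11, edgeR).

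MXD4 was the most abundant competitor in TPM in every whole-culture library except P1.r1, where MNT at 13.6 exceeded its 12.8. In normalized counts it was 1524, 1290 and 1500 at t0, 912, 1201 and 1531 at P1, and 2201, 2586 and 2618 at P5. The P5 libraries all lay above those of P1 and t0. Its rise from P1 to P5 was 1.07 (SE 0.28, adjusted p = 0.0104, edgeR), just short of the 1% limit, with an adjusted p of 0.0502 without the block, 0.098 without r2 and 0.11 without r3, and 0.0085 without r1 and 0.0099 without P3.r1. TPM values of MXD4 are less certain than its counts, because the mean transcript length that RSEM estimated for it ran from 751 to 2856 bases between libraries, while that of MYCN was 2602 in all.

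MXI1 stood out for a late peak. Its normalized count was 466, 1205 and 590 at t0, where r2 was far above the others. It was 913, 980 and 709 at P5, 1535, 2705 and 1866 at P7, and 2740, 4154 and 1609 at P8. Every P8 library lay above every P5 library, and within each differentiation P8 was higher, by 1.58, 2.08 and 1.18 on the log2 scale in r1, r2 and r3. At P9 it had 1962 and 994 and at P10 2428, 1215 and 1367, which overlaps with P8.

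No family gene passed either rule between P5 and P8 in whole cultures, where 0.00920% of all genes passed the study's thresholds and 0.262% had an adjusted p under 0.05. In edgeR's test 3 of the 9 had an unadjusted p under 0.05, against 13.3% of all genes, and 2, MXI1 and MXD1, passed the thresholds with DESeq2, against 0.713%. The log2 difference was 1.65 for MXI1 (SE 0.40, adjusted p = 0.0694) and 1.02 for MXD1 (SE 0.25, adjusted p = 0.0753).

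MNT, the most widely expressed competitor, moved least. It had 785, 1005 and 988 normalized counts at t0, 1009, 1167 and 1121 at P1 and 1298, 1396 and 1704 at P8. P1 lay above t0 in all 3 libraries, by a narrow margin over the highest t0 library. The difference from 36 h to P1 was 0.43 (SE 0.15, adjusted p = 0.0678, edgeR).

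Beyond the steps already given, the counts by comparison were low. Between 36 h and P1, 0 of 9 passed the study's thresholds in edgeR and 0 in DESeq2, against 1.19% and 2.64% of all genes. In edgeR 4 had an unadjusted p under 0.05, against 23.4%, and 2 (MYCN and MXD1) an adjusted p under 0.05, against 8.48%. Between P1 and P5, 0 of 9 passed in edgeR against 4.00% of all genes, and 2 (MYC and MXD4) in DESeq2 against 5.79%. In edgeR 4 had an unadjusted p under 0.05, against 31.2%, and 3 (MYC, MXD1 and MXD4) an adjusted p under 0.05, against 17.3%. Between P8 and P9 and P10, 0 of 9 passed in edgeR and 0 in DESeq2, against 1.25% and 3.40% of all genes. In edgeR 3 had an unadjusted p under 0.05, against 26.2%, and 2 (MYCN and MAX) an adjusted p under 0.05, against 10.4%. Between t0 and 36 h, 2 (MYC and MYCN) had an adjusted p under 0.05 in edgeR, against 12.3%, and the same 2 passed the study's thresholds in DESeq2, against 4.05%.

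The end of the series differed more from its start. Between t0 and the pooled P9 and P10, 6 of the 9 genes passed the study's thresholds, against 19.6% of all genes, and 9 of 9 had an adjusted p under 0.05, against 59.5%. The 3 MYC genes fell, by log2 fold changes of -2.13 for MYC (SE 0.52, adjusted p = 0.00116), -1.08 for MYCN (SE 0.23, adjusted p = 0.000253) and -3.28 for MYCL (SE 0.50, adjusted p = 5.64e-06) in edgeR's test. MAX rose by 1.07 (SE 0.14, adjusted p = 1.1e-06, edgeR). All 5 competitors rose, by 2.20 for MXD1, 1.25 for MXD4, 1.07 for MXI1, 0.92 for MXD3 and 0.64 for MNT. MXD1 and MXD4 passed the study's thresholds, with adjusted p values of 8.91e-08 and 0.000267 in edgeR's test.

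Marker genes differed between these ends as well, by an adjusted p under 0.05 in edgeR. Besides the 5 hESC markers that fell, 6 of 9 NC markers rose, with sums of 49.3 to 55.3 at t0 and 252 to 1203 at P9 and P10. Of the 6 epithelial markers 5 fell and 1 rose, with sums of 524 to 609 at t0 and 4.27 to 418 at the end. Of the 6 neuron markers 2 rose, with sums of 140 to 176 and 158 to 463. Paraxial mesoderm markers split, with 2 of 5 rising and 2 falling, as did NMP markers, with 1 of 5 rising and 2 falling. By that rule 29.6% of all genes rose and 29.9% fell, so the neuron, paraxial mesoderm and NMP counts are near the background. The part of any cell type shift in the changes of the 9 genes was not tested.

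Late and t0 libraries overlapped for MXI1 alone among these genes. The share of all genes free of such overlap was not computed, and 59.5% of them had an adjusted p under 0.05 here (edgeR). Separation is therefore not read as a trait of the family. For MXI1 the rise was in r1 and r3 only, at 2.23 and 1.21 on the log2 scale against -0.13 in r2, and without r1 its value was 0.34 with an adjusted p of 0.46 (edgeR). MYCN depended on P9.r2 for the fold minimum: without that library its log2 fold change was -0.78, with an adjusted p of 0.0019 (edgeR), and without the differentiation block it was -0.99. MAX had 0.95, under the fold minimum, without P10.r2. For MYC the value was -1.89 with an adjusted p of 0.023 when r1 was left out.

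**Figure D2:**
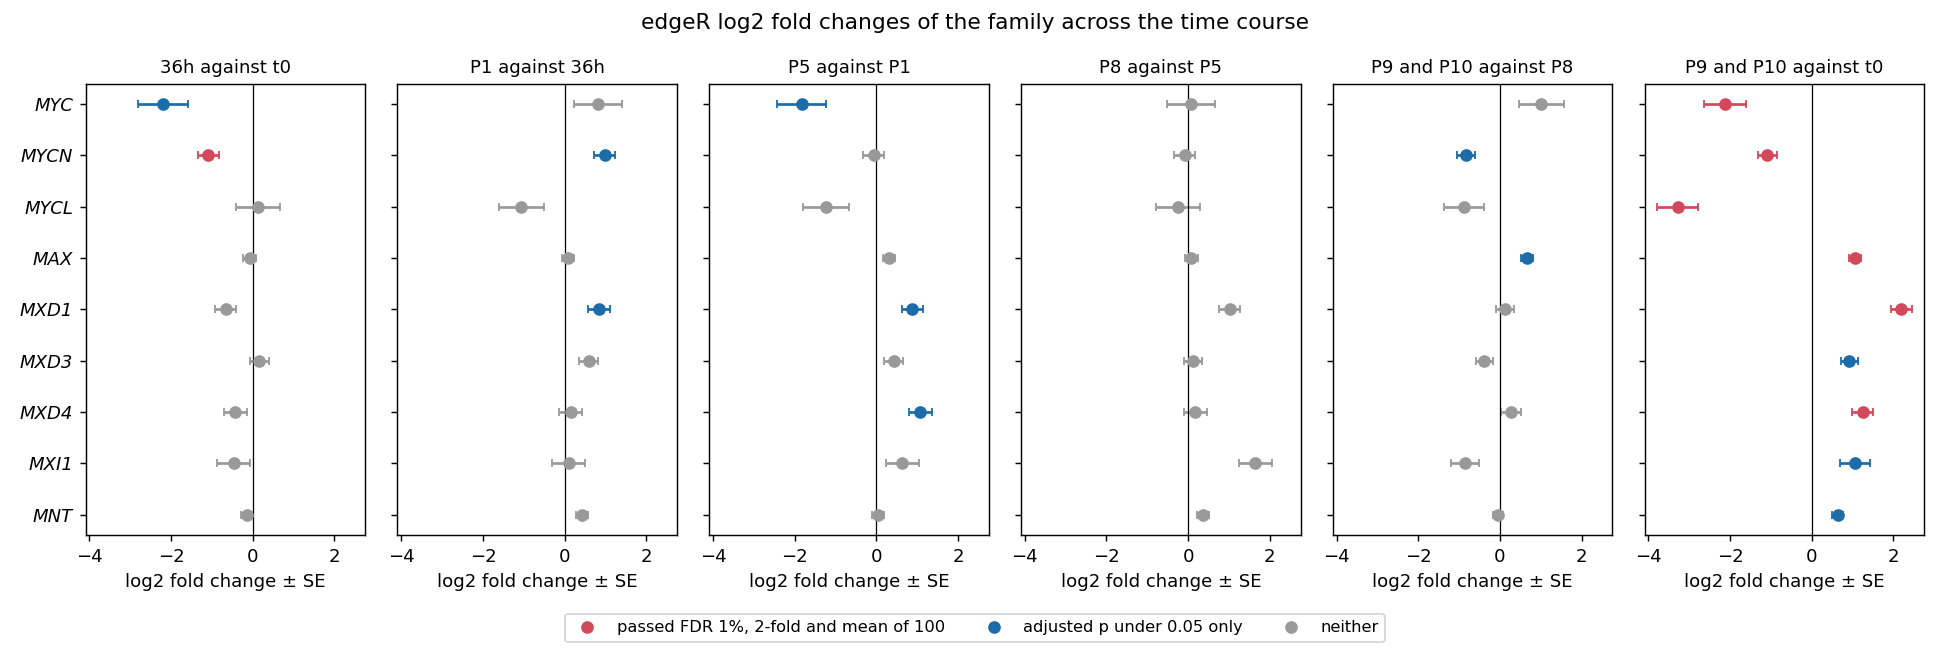
Log2 fold changes with standard errors from edgeR for the 9 genes in 6 comparisons of whole cultures, coloured by whether a gene passed the study's thresholds, an adjusted p under 0.05 alone, or neither. Single steps hold few coloured points, whereas in P9 and P10 against t0 the 3 MYC genes lie left of 0 and the other 6 lie right of it.

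Because TPM is scaled to length, the balance within the family can be read from sums. MYC, MYCN and MYCL together had a TPM of 119 ± 7.9 (SD, n = 3) at t0, 63.2 ± 9.0 at 36 h, 68.2 ± 19.0 at P8 and 46.0 ± 12.1 at P10. The 5 competitors together had 78.2 ± 9.1 at t0, 55.5 ± 11.8 at P1, 194 ± 28.4 at P8 and 196 ± 9.5 at P10. The ratio of the first sum to the second was 1.34, 1.73 and 1.55 in the t0 libraries and 0.26, 0.27 and 0.17 in those of P10, with no overlap. At P1 the ratio was 2.80, 1.47 and 0.90, the highest of the series being P1.r1. This ratio inherits the uncertain length of MXD4, which made up 63.0% of the competitor sum at t0 and 66.7% at P10.

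The make-up of the MYC sum shifted toward MYCN. MYCN contributed 51.4% ± 3.5 (SD, n = 3) at t0, 46.3% ± 9.8 at 36 h, 85.1% ± 1.3 at P3 and 86.0% ± 3.6 at P7, and then 69.9% ± 16.7 at P10. MYC contributed 29.3% ± 2.9 at t0, 3.04% ± 0.58 at P7 and 24.2% ± 17.2 at P10, where the 3 libraries held 8.32%, 42.4% and 21.9%. MYCL contributed most at 36 h, at 41.2% ± 5.3. The t0 and P7 ranges did not overlap for MYC or MYCN, while at P10 the MYCN share ran from 54.5% to 87.6%, which spans the whole range of P8.

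**Figure D3:**
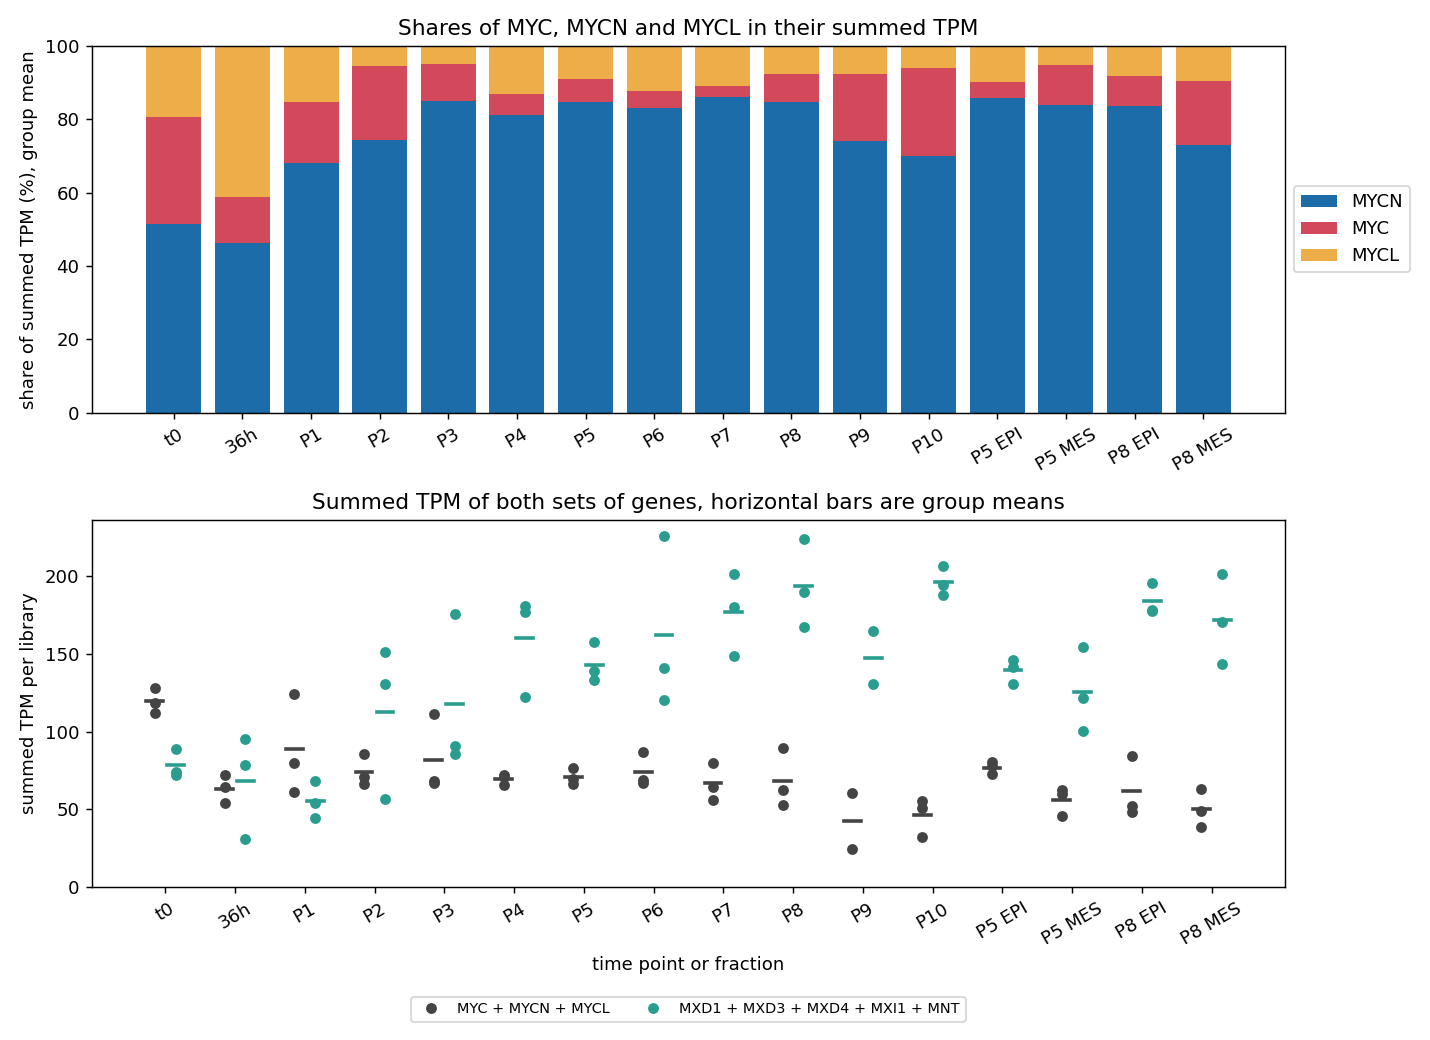
Upper panel, group mean share (%) of MYC, MYCN and MYCL in their summed TPM for the 12 time points and 4 fractions. Lower panel, summed TPM per library of the 3 MYC genes (grey) and of the 5 competitors (green), with horizontal bars at the group means. MYCN makes up 51.4% of the MYC sum at t0 and 86.0% at P7, and the competitor sum is above the MYC sum in every library from P4 on.

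The fractions ask whether the family differs between epithelial PNPs and mesenchymal NC cells of the same dishes. At P5, 0 of 9 genes passed the study's thresholds in edgeR, as did 0% of all 18885 genes tested, and 1 (MYCL) passed in DESeq2, against 3.57%. In edgeR 2 had an unadjusted p under 0.05, against 25.9%, and 0 an adjusted p under 0.05, against 7.89%. MYCL came closest. Its normalized count was 812, 378 and 309 in P5 EPI and 275, 207 and 74.5 in P5 MES, with every MES library under every EPI library, and the log2 difference was -1.39 (SE 0.36, adjusted p = 0.0507, edgeR).

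MYC pointed the other way. Its normalized count was 117, 166 and 232 in P5 EPI and 222, 280 and 467 in P5 MES, higher in MES within each of the 3 differentiations although the ranges overlap. The same held at P8, with 61.3, 405 and 243 in EPI and 251, 485 and 535 in MES. The log2 differences were 0.93 (SE 0.38, adjusted p = 0.171) at P5 and 1.00 (SE 0.39, adjusted p = 0.377) at P8 in edgeR's test, so neither passed. At P8, 0 of 9 genes passed in edgeR or DESeq2, with 0% of all genes called by either rule in edgeR and 0.291% in DESeq2, and MYC was the 1 family gene with an unadjusted p under 0.05, against 12.0% of all genes.

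MYCN was lower in MES than in EPI in 3 of 3 differentiations at both passages, at 2206, 3240 and 3052 against 3965, 4027 and 3741 at P5, where the ranges did not overlap. Its log2 difference was -0.43 (95% interval -1.01 to 0.15) at P5 and -0.50 (-1.08 to 0.08) at P8, with adjusted p values of 0.328 and 0.471 in edgeR's test. MAX differed by 0.08 (95% interval -0.10 to 0.26) at P5 and by -0.01 (-0.18 to 0.17) at P8, which bounds any difference well under 2-fold.

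Between passages, 2 competitors changed in both fractions. In EPI, MXI1 had 1060, 1008 and 756 normalized counts at P5 and 2526, 4084 and 1839 at P8. In MES it had 728, 914 and 603 at P5 and 2608, 2912 and 1072 at P8. P5 and P8 did not overlap in either fraction. The log2 fold change was 1.49 (SE 0.21, adjusted p = 0.0127) in EPI and 1.44 (SE 0.21, adjusted p = 0.00961) in MES in edgeR's test, and the latter passed the study's thresholds.

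MXD1 rose beside it. It had 199, 189 and 205 normalized counts in EPI at P5 and 291, 482 and 470 at P8, and 149, 174 and 122 in MES at P5 and 283, 370 and 365 at P8. The log2 fold changes were 1.02 (SE 0.19, adjusted p = 0.0236) and 1.15 (SE 0.20, adjusted p = 0.0139) in edgeR's test. By the study's thresholds 0 of 9 genes passed in EPI, against 0.259% of all genes, and 1 in MES, against 0.699%. With DESeq2 both genes passed in each fraction, against 3.21% of all genes in EPI and 3.98% in MES. At an adjusted p under 0.05 there were 2 in each, against 9.81% and 11.4% of all genes, and those 2 were also the only members with an unadjusted p under 0.05, against 31.3% and 31.1%. Without the block the adjusted p of MXI1 was 0.089 in EPI and 0.069 in MES, and that of MXD1 was 0.071 in EPI. Without r2 the adjusted p was 0.27 and 0.15 for MXI1 and 0.38 and 0.19 for MXD1, in EPI and MES in turn. Without r3 it was 0.080 and 0.044 for MXI1 and 0.16 and 0.13 for MXD1.

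The difference between fractions in the passage effect was tested as an interaction. In edgeR 0 of 9 genes passed the study's thresholds, with 0% of all genes called, 0 passed in DESeq2, against 0.00530%, and 1 (MYCL) had an unadjusted p under 0.05, against 6.10%. For MXI1 the interaction was -0.05 (95% interval -0.72 to 0.62) and for MXD1 0.14 (-0.49 to 0.76) on the log2 scale, both with intervals that admit moderate differences in either direction.

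The markers also moved between P5 and P8 fractions. The 9 NC markers summed to a TPM of 86.8, 180 and 325 in P5 EPI and to 119, 497 and 874 in P8 EPI, and 5 of them rose at an adjusted p under 0.05 in edgeR. In MES, 1 of the 9 rose and 1 fell, and the sum was 561, 538 and 741 at P5 and 346, 555 and 1247 at P8. The 5 paraxial mesoderm markers summed to 55.2, 40.2 and 30 in P5 MES and to 97.3, 133 and 117 in P8 MES, without overlap, and to 110, 71.2 and 66.5 in P5 EPI and 106, 164 and 143 in P8 EPI, with 1 rising in MES and 0 in EPI at an adjusted p under 0.05. The 6 epithelial markers summed to 728, 554 and 447 in P5 EPI and 661, 276 and 184 in P8 EPI, lower in 3 of 3 differentiations, and to 258, 225 and 84.0 in P5 MES and 455, 182 and 51.2 in P8 MES. By that rule CDH1 rose in both fractions and EPCAM in MES, and 0 of the 6 fell. The 5 hESC markers summed to 105, 136 and 140 in P5 EPI and 94.1, 46.7 and 60.0 in P8 EPI, and to 127, 168 and 164 in P5 MES and 103, 62.7 and 63.5 in P8 MES, and POU5F1 and DPPA4 fell in both. Of 12 proliferation genes, 4 fell in EPI and 2 in MES by that rule, and all 12 values were negative in both. Of the 5 NMP markers, 1 fell in MES and 0 in EPI. The 6 neuron markers summed to 163, 129 and 76.9 in P5 MES and 155, 232 and 412 in P8 MES. In EPI they summed to 291, 206 and 192 at P5 and 176, 177 and 305 at P8, and 0 of them passed that rule in either fraction. Over all genes, 9.81% in EPI and 11.4% in MES passed it in either direction. The part of any of these marker and proliferation genes in the MXI1 and MXD1 values was not tested.

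**Figure D4:**
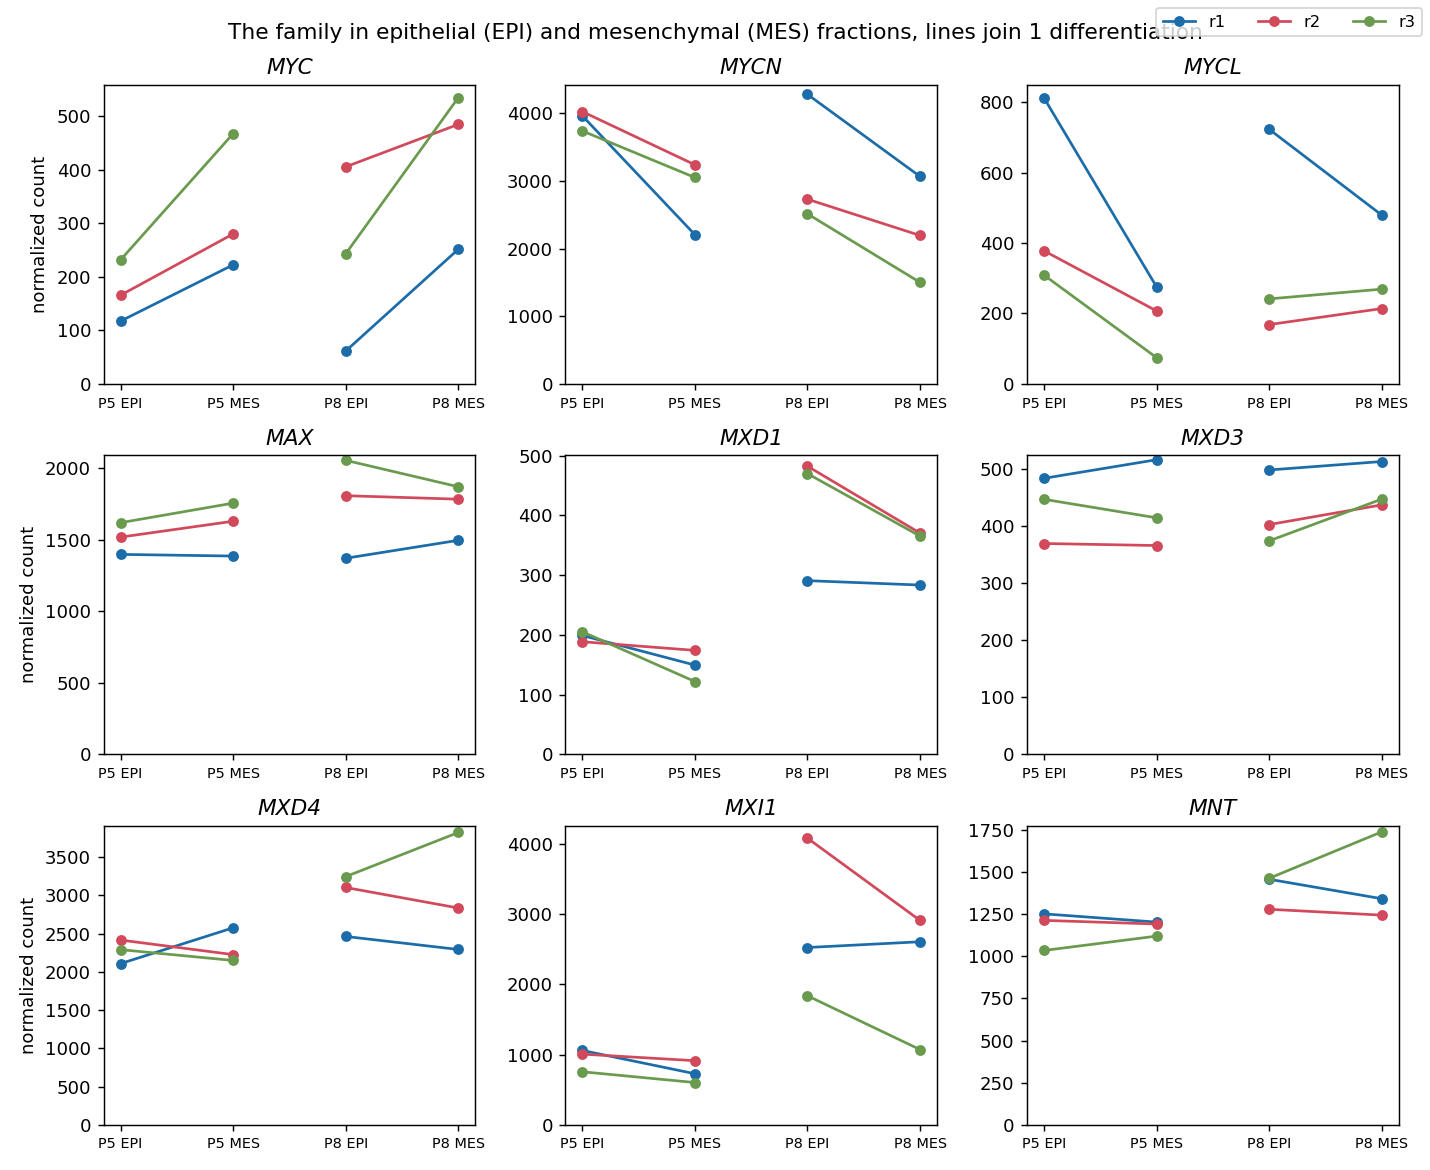
Normalized counts of the 9 genes in EPI and MES fractions at P5 and P8, with lines joining the 2 fractions of 1 differentiation at 1 passage. MYC is higher and MYCN lower in MES than in EPI along all 6 lines, and MXI1 sits between 603 and 1060 at P5 and between 1072 and 4084 at P8.

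Other parts of the network were read from lists of genes by role. Of the 4 other genes that pair with MAX or MLX, MLXIPL, a glucose-responsive factor, fell by -7.21 (SE 0.65, adjusted p = 2.6e-09) from t0 to P9 and P10, and MLX, the partner of the glucose-sensing branch, rose by 0.40 (adjusted p = 0.028), in edgeR's test. The list's median was 0.19 against 0.01 over all genes. Of the 8 corepressor genes that MXD proteins use, 4 fell and 1 rose at an adjusted p under 0.05, with a median of -0.24, and over all genes 29.9% fell and 29.6% rose by that rule, so the number called in this and the next lists of cofactors and turnover genes is near the background. The largest of these were SUDS3 at -0.81 and HDAC1 at -0.57, both parts of the SIN3 complex, and NCOR1 at 0.54, and none passed the 2-fold minimum.

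Of the 10 MYC cofactors, 4 rose and 2 fell at an adjusted p under 0.05 in the same comparison, with a median of 0.09. RUVBL1, a helicase of the TIP60 complex, fell by -1.21 (SE 0.13), and ZBTB17, which encodes the MYC partner MIZ1, rose by 1.11 (SE 0.17), and both passed the study's thresholds. Of the 11 genes of MYC protein turnover, 3 rose and 3 fell, with a median of 0.03. USP28, a deubiquitinase that counters FBXW7, fell by -1.42 (SE 0.14), and GSK3B, the kinase that marks MYC for FBXW7 and that CHIR-99021 inhibits, rose by 1.26 (SE 0.10). At 36 h against t0, ZBTB17 was 0.61 higher (adjusted p = 0.025) and FBXW7 0.47 higher (adjusted p = 0.016) in edgeR's test.

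Established MYC target genes for ribosome biogenesis and growth were lower at the end of the series. Of 50 such genes, 14 fell by the study's thresholds and 0 rose from t0 to P9 and P10, where 9.06% of all genes fell and 10.6% rose. At an adjusted p under 0.05, 38 fell and 1 rose, against 29.9% and 29.6% of all genes. Their median log2 fold change was -0.76, against 0.01 over all genes tested. The 4 largest were TERT, the catalytic subunit of telomerase, at -5.59 (SE 0.40), the glycolytic enzyme HK2 at -2.77 (SE 0.27), the uracil glycosylase UNG at -1.82 (SE 0.21) and the lactate dehydrogenase LDHA at -1.68 (SE 0.30), and the 1 that rose was the kinase CDK4 at 0.66 (SE 0.09). Many other factors also regulate these genes.

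Single steps gave smaller medians. At 36 h, where MYC fell by 2.20 on the log2 scale, the median of the list was -0.10 against 0.00 over all genes. Of the 50, 1 gene (HK2) passed the study's thresholds, where 2.71% of all genes did. At an adjusted p under 0.05, 2 genes fell and 1 rose, where 12.3% of all genes were called in either direction. The rise was that of ODC1 at 1.98 (SE 0.51, adjusted p = 0.012, edgeR). The median was 0.19 from 36 h to P1, with 39 of 50 positive. In that step 1 gene had an adjusted p under 0.05, where 8.48% of all genes did. It was -0.35 from P1 to P5 and -0.32 from P5 to P8, with 8 and 0 genes at an adjusted p under 0.05, all 8 falling where 9.05% of all genes fell, and with 48 and 49 of the 50 values negative. From P8 to P9 and P10 it was -0.10. In that step 2 of the 50 fell and 0 rose at an adjusted p under 0.05, where 10.4% of all genes were called in either direction. Summed over the list, TPM was 14550 to 16433 at t0, 9926 to 12970 at P8 and 8914 to 11562 in the 3 libraries of P10.

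**Figure D5:**
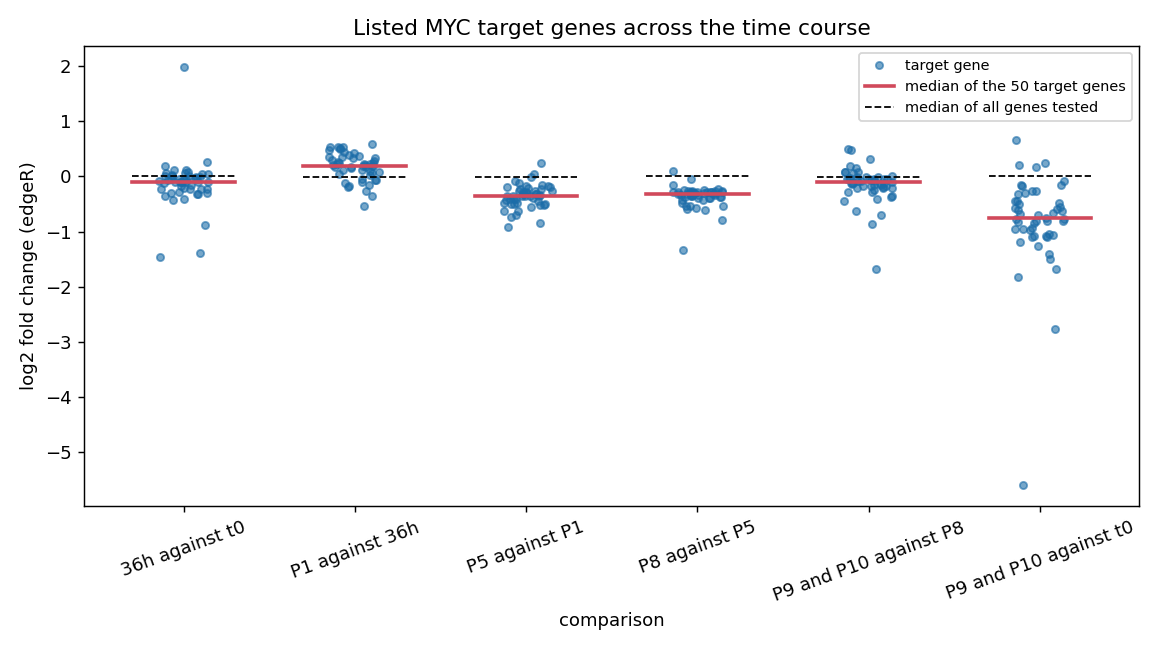
Log2 fold changes (edgeR) of 50 MYC target genes in 6 comparisons of whole cultures. Each point is 1 gene, the red bar is the median of the list and the dashed line the median of all genes tested. The list sits near the median of all genes at 36 h (-0.10) and under it in P9 and P10 against t0 (-0.76).

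A list of 12 proliferation genes was measured beside the targets. From t0 to P9 and P10, 8 fell and 1 rose at an adjusted p under 0.05, and 1, the spindle checkpoint kinase gene BUB1, passed the study's thresholds at -1.57 (SE 0.15, edgeR). Over all genes 29.9% fell and 29.6% rose by the first rule and 9.06% fell by the second, so 1 of 12 is near the background. The median was -0.43. MKI67 was the gene that rose, by 0.55 (SE 0.22, adjusted p = 0.033). Between t0 and 36 h none of the 12 had an adjusted p under 0.05 and the median was 0.00. The median was 0.06 from 36 h to P1, with 1 gene falling by that rule, and -0.02 from P1 to P5, with 0 called. From P5 to P8 and from P8 to P9 and P10 it was -0.26 and -0.29. All 12 values were negative in both of these steps, and 0 were called. The part of proliferation in the values of the target list was not tested.

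The noncoding neighbours of the MYC loci were measured individually. PVT1, next to MYC, had 367 to 413 normalized counts at t0, 98.5 and 184 at P9 and 124 to 201 at P10, without overlap, and fell by -1.47 (SE 0.28, adjusted p = 8.3e-05, edgeR). MYCNOS, antisense to MYCN, had 39.4 to 42.5 normalized counts at t0, 5.08 and 19.5 at P9 and 6.40 to 32.6 at P10, and changed by -1.62 (SE 0.42, adjusted p = 0.0018), on a mean under the count minimum of 100. Without knowledge of how strand was counted, MYCNOS and MYCN reads cannot be fully told apart. CASC11 and the pseudogene MYCLP1 had at most 7 and 2 assigned reads in any library, and MYCNUT had 0 in all.

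The genes closest in pattern to each member were found by Pearson's r of log2 group means over the 12 time points and 4 fractions, among 13297 genes averaging 100 or more normalized counts. These r values describe 16 group means that share a time axis and partly the same dishes. The closest gene was KLF16 for MYC (r = 0.93), TXNL4A for MYCN (0.91), TSPAN33 for MYCL (0.95), ZCCHC14 for MAX (0.97), GUCY1B1 for MXD1 (0.97), DCLK2 for MXD3 (0.95), DYRK1B for MXD4 (0.98), TPD52L1 for MXI1 (0.97) and NCALD for MNT (0.96). Within the family, MXD1 was close to MNT (0.88), MXI1 (0.87) and MXD4 (0.84), MYC was most unlike MXD3 (-0.79), MYCL was most unlike MXD4 (-0.81), and MYC and MYCN had an r of -0.02.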

How the data were processed

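Poly(A) RNA was sequenced single-end in 47 libraries. Per the submitters' processing notes, cutadapt 1.16, STAR 2.5.2b and RSEM 1.3.0 were used with GRCh38; the annotation release and strand setting are not given in the sources used here. The authors deposited 1 RSEM table per library holding expected counts (reads assigned to a gene, not whole in 9.33% of values), TPM, and another column with the mean transcript length, and all 3 were used as deposited. Symbols and positions came from GENCODE 29, which held 57447 of the 58051 identifiers. Expected counts were rounded. The main test was edgeR 4.0.16 (R 4.3.3), glmQLFTest with TMM factors, genes kept by filterByExpr and the differentiation number as a block, with Benjamini-Hochberg adjustment over all genes: 21750 in the fit of 35 whole cultures and 18885 in that of 12 fractions. DESeq2 1.42.0 was an alternative. Normalized counts are rounded counts over TMM factors of all 47 libraries. The labels number the replicates and the study describes them as independent differentiations, and the number was kept as the block. Deviations of same-numbered libraries had a mean r of 0.419 against -0.205 for other pairs in fractions, where every same-numbered r was at least 0.121. In whole cultures it was 0.138 against -0.068 with a lowest r of -0.18, and no pairing showed between t0 and 36 h (-0.0067 against 0.0028) or between P1 and P5 (-0.016 against 0.0067). Intervals of log2 differences use the t distribution with the degrees of freedom of the test. The closest pair of replicates differed by a chi-square of 25.4 per gene, so none was counted as a duplicate. The scripts were tested on simulated counts. Named genes are the 9 members, the genes of fixed role lists (up to 4 with the largest change among those called) and the neighbours individually, and the closest gene by pattern. CDK4 and MKI67 were named after their values were seen, as the 1 gene of their list that rose. Members and lists were chosen with earlier results of these data known. Alternatives were another normalization, filter, tool, fit, threshold and the omission of replicates or libraries. P-values rest on the spread left after group and differentiation are fitted, shared over all groups of a fit, in 1 line. P9 and P10 libraries of r1 and of r2 are passages of 1 numbered differentiation but entered the pooled comparisons as separate libraries. Likeness between passages of a differentiation beyond the block was not modelled, so p-values of the pooled P9 and P10 may be too small.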

Additional observations from a re-analysis of the deposited data

Results flagged for a closer look

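MYCL values between P5 and P8 had opposite signs in the 2 fractions, although it passed neither rule in either. In EPI each of the 3 differentiations was lower at P8 than at P5, with a mean log2 ratio of normalized counts of -0.5623, and in MES each was higher, by 0.80, 0.05 and 1.84 in r1, r2 and r3. The test of that difference gave an interaction of 1.32 on the log2 scale (SE 0.50, unadjusted p = 0.0272, adjusted p = 0.816, edgeR), so it did not pass. Leaving out 1 differentiation gave adjusted p values from 0.58 to 1. None of the other 8 genes was lower in each differentiation in 1 fraction and higher in each in the other. For MXD3 the group means also moved apart, from 433 to 425 normalized counts in EPI and from 432 to 465 in MES. Its differentiations were mixed in sign in both fractions.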

How the results depend on the processing

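Member counts by the study's thresholds moved as follows. Without the replicate block, 0 rather than 1 passed at 36 h against t0 and at P8 MES against P5 MES, and no other count moved by over 1.5 times. DESeq2 gave 2 at 36 h against t0, P5 against P1, P8 against P5 and in both fractions between passages, and 1 at P5 MES against P5 EPI, where it called from 0.713% to 5.79% of all genes. A single fit of 47 libraries gave 2 at 36 h against t0, 1 at P5 against P1 and 0 at P8 MES against P5 MES. A 5% limit gave 2 at 36 h against t0, P5 against P1 and in both fractions between passages. Among omissions chosen after seeing the data, 36 h against t0 had 2 without P10.r2, P1 against 36 h had 1 without 36h.r3, and P5 against P1 had 1 without P3.r1. In planned ones 36 h against t0 had 0 without P4.r3 and P6.r3, and without P1.r1 and P10.r1, P1 against 36 h had 1. With no fold minimum, P9 and P10 against P8 had 1 and the target list had 33 falling genes rather than 14. With no filter on low counts, P8 EPI against P5 EPI had 1. Leaving out 1 differentiation gave 0 to 1 at 36 h against t0, P1 against 36 h and P9 and P10 against P8, 3 to 8 for any difference among the time points, and 0 at P8 MES against P5 MES in each case. P9 and P10 against t0 gave 4 to 8 under every alternative run, where the main fit called 19.6% of all genes. Beyond the DESeq2 counts named above, the share of all genes called under each setting is not given here. The member and target counts can move with that share and are not read as results about the family. Directions were compared only for member results with an unadjusted p under 0.05 in the main edgeR fit or called under an alternative. None of those reversed under the alternatives run. Other reported values, such as the small fraction differences, interactions and list medians, were left out of that comparison. The cause of these moves was not tested, other than that leaving out a differentiation removes a sample per group. Groups held 3 libraries or fewer per time point, and the effect of depth was not tested beyond leaving out the 2 smallest libraries.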
